A study of Mus musculus with 6 samples.

Results

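Macroautophagy is the route by which a cell wraps cytoplasm, damaged organelles or protein aggregates in a double membrane, the autophagosome, and delivers them to the lysosome. A kinase complex around ULK1 starts the process, a lipid kinase complex around Beclin 1 marks the membrane, ATG2, ATG9 and WIPI proteins supply it with lipid, and a pair of ubiquitin-like conjugation systems attach the ATG8 proteins (LC3 and GABARAP) to it. Cargo receptors such as p62 then bind both the cargo and ATG8, and in liver this turnover limits the build-up of p62 and of damaged mitochondria. The genes described here are 38 components of this machinery, chosen by name from a fixed list and matched by gene symbol. All 38 had an entry among the 23282 listed in the count files, and all 38 passed the filter on low counts that left 12088 genes for testing.

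The study measured messenger RNA by 3' end sequencing in 6 libraries of BMOL, a line of mouse liver progenitor (oval) cells. Of these, 3 were labelled as vector control and 3 as carrying constructs that express TXNIP, the thioredoxin-interacting protein. Both groups are the same line by label, with no further genotype, time point or selection given, and separate cultures are not named for the libraries. The p-values below therefore measure the spread between these libraries, which may be technical.

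Below, values "with vector" and "with TXNIP" are those of the libraries so labelled, in the order of replicates 1 to 3. Library totals ranged from 8725624 to 15119775 counts. Txnip itself stood at 38.3, 9.63 and 10.8 CPM (reads scaled to a common library size, with TMM factors) in control replicates 1 to 3 and at 217, 299 and 290 CPM with TXNIP, a log2 fold change of 3.82 ± 0.46 (SE; edgeR adjusted p = 2.76e-05). Whether reads of a construct entered this count beside those of the endogenous gene was not tested. The groups also differed in the markers of their cells. Of 18 leukocyte and macrophage markers, 12 were tested and all 12 rose, and their summed level was 72.6 to 92.9 CPM with vector and 6116 to 6845 CPM with TXNIP. Of 14 cholangiocyte and progenitor markers, 9 were tested, 8 fell and 1, Spp1, rose; 8 of the 14, among them Sox9 and Epcam, had no read in any TXNIP library, while every control library held reads of both. Among the leukocyte markers C1qa, Clec4f and Marco had no read in any library, and Itgam and Adgre1 had none in the controls. Of 12 hepatocyte markers 6 were tested, with 4 lower, 1 higher and 1 that did not pass. The 9 fibroblast and 7 endothelial markers summed to 0.849 to 3.36 CPM and to 32.5 to 62.7 CPM over all libraries. The TXNIP label and this difference in cell markers cannot be told apart in any comparison below, and in bulk RNA fewer cells of a type and less RNA per cell cannot be told apart either. Replicate 1 of each group stood apart from replicates 2 and 3 (its chi-square over genes, divided by the degrees of freedom, was at least 23.1 against them, while replicates 2 and 3 gave 6.40 and 6.51), so counts are given with and without both of those libraries.

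The sequences that bear on the comparison are the promoter regions of the members, since a group of members moved together and since TFEB and TFE3, known regulators of autophagy and lysosome genes, bind sites built on the E-box CACGTG. RefSeq promoter windows (GRCm38.p6, the assembly of the files' build mm10; 250 bases before to 50 after each start) were found for 32 of the 38 members; Rb1cc1, Becn1, Pik3c3, Atg12, Atg16l1 and Map1lc3a had no entry in the table. CACGTG, which reads the same on both strands, was in the window of 4 of the 32 (12.5%), against 11.9% of 9190 tested genes and 8.09% of all 27025 genes with a window. TCACGTG on either strand, which contains the E-box, was in 3 of the 32, against 7.15% of tested genes. Both genes with it among those that rose, Atg3 and Atg7, and the gene with it among those that did not pass, Atg14, are shown with Atg5, which holds only the shorter motif. Capitals mark the motif, and each stretch runs 5′ to 3′ on the gene's strand.
Atg3 (chr16:45158718-45158781, plus strand): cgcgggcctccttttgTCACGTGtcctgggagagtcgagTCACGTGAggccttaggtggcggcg
Atg7 (chr6:114670947-114670987, plus strand): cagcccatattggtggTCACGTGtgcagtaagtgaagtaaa
Atg14 (chr14:47568412-47568452, minus strand): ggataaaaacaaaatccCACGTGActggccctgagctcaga
Atg5 (chr10:44268308-44268348, plus strand): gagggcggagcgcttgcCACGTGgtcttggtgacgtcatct

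Atg3 held 2 copies, and the first began 94 bases before the start. The only Atg7 window ran from 114670846 to 114671145, inside the gene, which begins at 114643127. Both Atg4c windows, from 99193684 and from 99193897, also lay inside their gene, which begins at 99189159. The only Optn window ran from 5064068 to 5064367, inside the gene, which begins at 5064399 on the minus strand. The only Atg10 window, from 91223938 to 91224237, was inside a gene that begins at 91224725 on the minus strand. For Atg7, Atg4c, Optn and Atg10, a window at the first base of the gene was not searched. None of the 11 members with a window that fell held CACGTG, against 11.6% of all tested genes that fell. Those 11 include Atg4c and Optn, whose windows lay inside the gene. A match is a description of the letters and not a binding site.

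The ATG8 genes with a window, Sqstm1, Optn and Wipi1 are shown by the 100 bases before the start used for their window. Sqstm1 and Optn are receptor genes that moved in opposite directions, and Wipi1 had the deepest fall after Optn. CpG dinucleotides are in capitals, because CpG-rich starts are typical of broadly expressed genes. The Optn stretch lies inside its gene, which begins at 5064399 on the minus strand, and not before its first base.
Map1lc3b (chr8:121590338-121590437, plus strand, 18 CpG): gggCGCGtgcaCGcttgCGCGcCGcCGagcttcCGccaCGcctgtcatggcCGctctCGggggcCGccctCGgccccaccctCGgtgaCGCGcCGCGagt
Gabarapl1 (chr6:129533092-129533191, plus strand, 8 CpG): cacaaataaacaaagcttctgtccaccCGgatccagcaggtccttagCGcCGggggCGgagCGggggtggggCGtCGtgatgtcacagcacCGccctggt
Gabarapl2 (chr8:111940603-111940702, plus strand, 9 CpG): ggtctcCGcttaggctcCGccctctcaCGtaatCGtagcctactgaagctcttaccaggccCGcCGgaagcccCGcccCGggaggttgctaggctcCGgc
Gabarap (chr11:69991270-69991369, plus strand, 3 CpG): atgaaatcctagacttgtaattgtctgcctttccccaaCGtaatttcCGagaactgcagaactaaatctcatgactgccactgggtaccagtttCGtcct
Sqstm1 (chr11:50210821-50210920, minus strand, 7 CpG): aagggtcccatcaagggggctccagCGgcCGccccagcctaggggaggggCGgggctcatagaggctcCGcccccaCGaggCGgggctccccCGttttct
Optn (chr2:5064118-5064217, minus strand, 7 CpG): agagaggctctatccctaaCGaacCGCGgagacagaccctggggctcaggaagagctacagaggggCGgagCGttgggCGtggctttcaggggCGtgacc
Wipi1 (chr11:109611390-109611489, minus strand, 11 CpG): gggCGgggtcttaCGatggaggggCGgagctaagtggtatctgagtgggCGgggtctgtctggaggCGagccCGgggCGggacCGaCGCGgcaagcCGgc

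Over the 250 bases before the start, members had a median of 16.5 CpG, close to the 17 of tested genes and above the 6 of all genes with a window. Optn, with its window inside the gene, held 8 and Wipi1 19 over that length. The members that fell had a median of 19 and those that rose a median of 14, with ranges of 6 to 43 and 3 to 35 that overlapped. The low of 3 came from the Atg7 window inside the gene.

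The comparison asks how the messenger RNAs of the autophagy machinery differed between libraries labelled TXNIP overexpression and vector control. Of the 38 members 22 changed, 10 higher and 12 lower, and 16 did not pass (edgeR's quasi-likelihood test, adjusted p over all 12088 genes). That is 57.9% of members, against 64.5% of all tested genes, of which 30.6% were higher and 33.9% lower. More than 2-fold, 12 members changed (40.7% of all tested genes did): 3 rose (Atg13, Atg16l2 and Sqstm1; 18.1% of all tested genes did) and 9 fell (22.5% of all tested genes did). The groups did not overlap for 26 of the 38, against 70.4% of tested genes. The median log2 fold change was -0.08 for members and -0.04 for all tested genes, and the median size regardless of sign was 0.68 for members and 0.80 for all tested genes. In these counts the list as a whole stood near the background. Without replicate 1 of both groups 25 members changed, 10 higher and 15 lower. The count over all genes also rose in that setting, from 7796 to 8491 (4022 higher and 4469 lower).

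**Figure D1:**
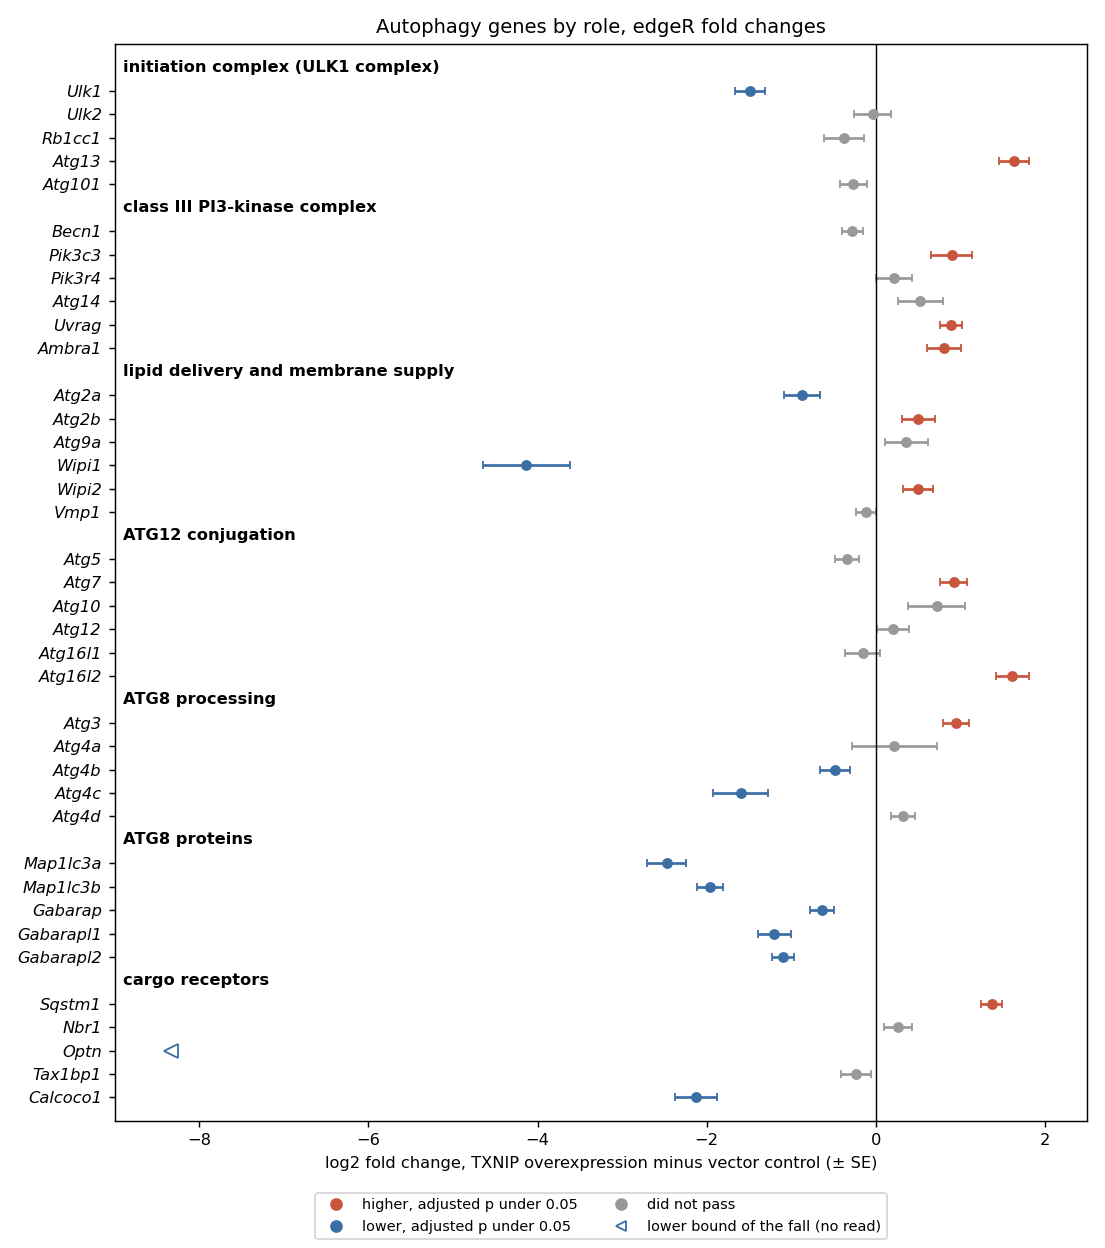
Log2 fold change (x axis, TXNIP overexpression minus vector control, edgeR fit, bars ± SE, n = 3 libraries each) of the 38 members, grouped by role. Every ATG8 gene lies left of 0, from -2.48 to -0.64, while Sqstm1 lies right of it at 1.37; the open triangle for Optn is a lower bound of its fall, since no TXNIP library had a read.

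The ATG8 proteins are the ubiquitin-like tags that are joined to lipid on the growing membrane and hold cargo receptors there. All 5 members fell (33.9% of all tested genes did), and for each the control libraries lay above every TXNIP library (70.4% of all tested genes had groups that did not overlap). Map1lc3b, which encodes LC3B, the tag most used to count autophagosomes, had 379, 288 and 275 CPM with vector and 72.4, 85.2 and 83.5 CPM with TXNIP. It fell 3.90-fold (log2 fold change -1.96 ± 0.15 SE, edgeR adjusted p = 2.24e-07), and the gene lies on chromosome 8 from 121590438 to 121598760. Map1lc3a, which encodes LC3A, had 38.5, 36.5 and 26.4 CPM and then 4.99, 6.67 and 6.44 CPM, 5.60-fold lower (log2 fold change -2.48 ± 0.23). Its fall on the log2 scale was the deepest of the ATG8 genes.

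The GABARAP branch of the family, which works later in autophagosome closure and also binds the ULK1 complex, fell less. Gabarapl1 had 153, 99.4 and 91.4 CPM with vector and 50.03, 43.4 and 55.5 CPM with TXNIP, 2.31-fold lower (log2 fold change -1.20 ± 0.19, edgeR adjusted p = 1.72e-04). Control replicate 1 was the highest of these. Gabarapl2 had 165, 147 and 136 CPM and then 68.3, 68.7 and 71.7 CPM, 2.14-fold lower. Gabarap had 236, 267 and 244 CPM and then 129, 176 and 175 CPM, 1.56-fold lower (log2 fold change -0.64 ± 0.14, edgeR adjusted p = 0.00166). Summed over the 5 genes, the level was 860 ± 101 CPM with vector and 366 ± 35.7 CPM with TXNIP (SD, n = 3 each), 2.35-fold lower.

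Cargo receptors bind ubiquitin or other marks on cargo and carry a motif that docks on ATG8. Sqstm1, which encodes p62 and is also a target of the NRF2 stress response, had 351, 300 and 291 CPM with vector and 857, 770 and 806 CPM with TXNIP. It rose 2.58-fold (log2 fold change 1.37 ± 0.12, edgeR adjusted p = 9.1e-07), and the groups did not overlap. Its direction was thus the reverse of that of the ATG8 genes. Optn, which encodes optineurin, a receptor for damaged mitochondria and bacteria, had 47.5, 23.0 and 32.1 CPM in the controls (432, 332 and 492 reads) and no read in any TXNIP library. With 3 reads set as the floor for the whole TXNIP group, it was at least 321-fold lower (edgeR adjusted p = 2.78e-07). The gene lies on chromosome 2 from 5020521 to 5064399.

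Calcoco1, a receptor linked to turnover of endoplasmic reticulum and Golgi, had 80.7, 44.9 and 47.2 CPM with vector and 12.95, 15.6 and 10.9 CPM with TXNIP. It fell 4.39-fold (log2 fold change -2.13 ± 0.25, edgeR adjusted p = 1.16e-05). Nbr1, which works beside p62, stood at 44.7 ± 6.48 and 53.5 ± 6.42 CPM, and Tax1bp1, another ubiquitin-binding receptor, at 199 ± 28.3 and 170 ± 44.8 CPM (SD, n = 3 each). Neither passed (edgeR adjusted p = 0.174 and 0.272), and in both the groups overlapped. Without replicate 1 of both groups both passed, Nbr1 higher (log2 fold change 0.40, adjusted p = 0.0208) and Tax1bp1 lower (-0.36, adjusted p = 8.13e-04). For Tax1bp1 the TXNIP libraries were uneven, with 221 CPM in replicate 1 and 147 and 141 CPM in the others. Without TXNIP replicate 1 its log2 fold change was -0.46 and passed (edgeR adjusted p = 0.00977). The receptors summed to 650 ± 96.6 CPM with vector and 1047 ± 82.7 CPM with TXNIP. Without Sqstm1 the direction turned: the other 4 summed to 336 ± 64.2 and 236 ± 44.8 CPM (SD, n = 3 each).

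**Figure D2:**
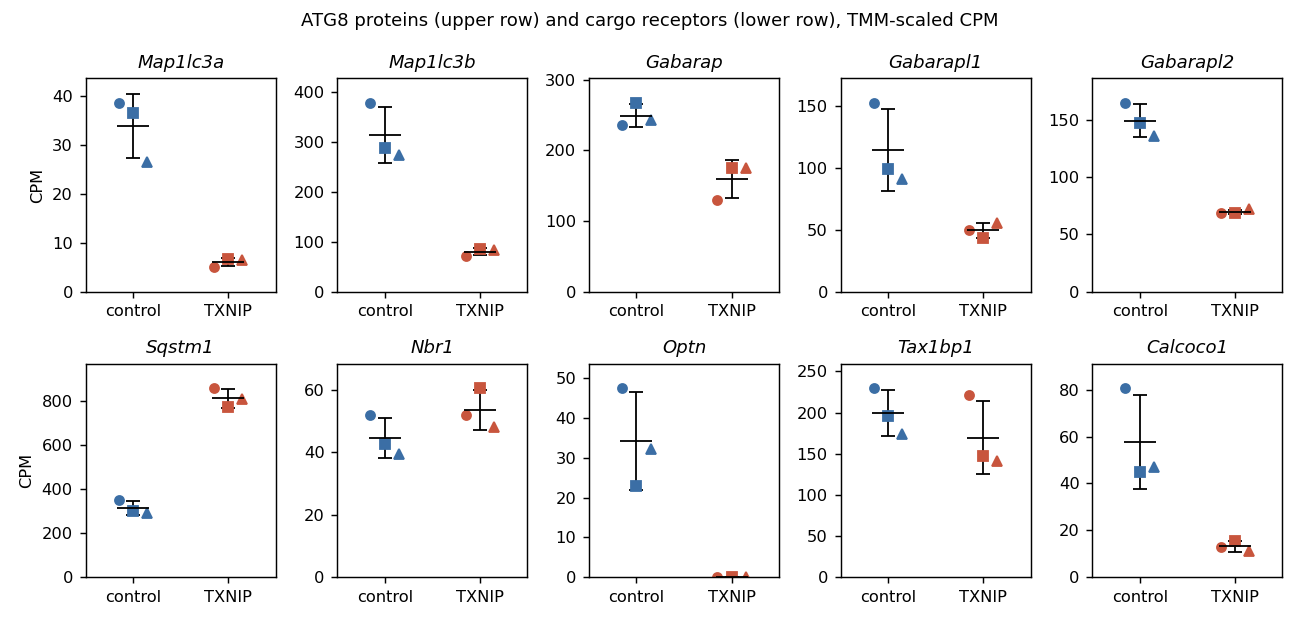
Level of each ATG8 gene (upper row) and cargo receptor gene (lower row) in TMM-scaled CPM on linear axes from 0; circles, squares and triangles are replicates 1, 2 and 3, and bars give the mean ± SD (n = 3). In the upper row all TXNIP libraries lie below all controls; in the lower row Sqstm1 is higher in every TXNIP library and Optn has no read in any.

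The ULK1 complex receives signals from the nutrient kinase mTOR and the energy sensor AMPK. Within it, 1 member fell, 1 rose and 3 did not pass (40% changed, against 64.5% of all tested genes). Ulk1, the kinase itself, had 60.9, 51.01 and 54.7 CPM with vector and 16.4, 23.1 and 19.8 CPM with TXNIP, 2.81-fold lower (log2 fold change -1.49 ± 0.18, edgeR adjusted p = 1.11e-05). Atg13, the subunit that links ULK1 to the scaffold, went the other way, from 21.2, 15.8 and 16.7 CPM to 48.8, 55.7 and 60.8 CPM, 3.08-fold higher (log2 fold change 1.63 ± 0.18). The control and TXNIP libraries did not overlap for either gene. Ulk2, the second kinase, had 17.3, 16.1 and 18.03 CPM and then 21.2, 14.5 and 14.4 CPM and missed the threshold (edgeR adjusted p = 0.882). Rb1cc1, which encodes the scaffold FIP200, stood at 69.8 ± 18.4 and 53.8 ± 16.9 CPM, and Atg101, which stabilises ATG13, at 71.5 ± 14.02 and 59.2 ± 3.42 CPM. Rb1cc1 passed without TXNIP replicate 1 (log2 fold change -0.65, edgeR adjusted p = 0.0155) and without replicate 1 of both groups (-0.43, adjusted p = 0.00661).

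The class III phosphatidylinositol 3-kinase complex makes the lipid that recruits later factors. Of its 6 members 3 rose, none fell and 3 did not pass, against 30.6% higher and 33.9% lower among all tested genes. Uvrag, a subunit of the form that acts in endosome and autophagosome maturation, had 43.7, 47.8 and 47.0 CPM with vector and 85.4, 87.5 and 83.4 CPM with TXNIP (log2 fold change 0.89 ± 0.13, edgeR adjusted p = 6.37e-05). Pik3c3, the catalytic subunit VPS34, rose 1.86-fold, from 11.7 ± 2.96 to 21.8 ± 4.04 CPM, and Ambra1, a regulator that joins Beclin 1 to the ULK1 complex, rose 1.75-fold, from 12.5 ± 0.956 to 21.8 ± 2.67 CPM (SD, n = 3 each). Atg14, the subunit of the form that starts autophagosomes, had 8.88 ± 1.25 and 12.9 ± 2.87 CPM and missed the threshold (edgeR adjusted p = 0.0976). Pik3r4, which encodes the VPS15 subunit, had 22.6 ± 4.44 and 26.1 ± 5.24 CPM and did not pass either.

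Becn1, which encodes Beclin 1, stood at 121 ± 2.59 and 99.9 ± 8.39 CPM and missed the threshold (edgeR adjusted p = 0.0646), although the groups did not overlap. It passed with library size alone as the scaling (log2 fold change -0.35, adjusted p = 0.0242), in DESeq2 (-0.29, adjusted p = 0.0415) and without replicate 1 of both groups (-0.28, adjusted p = 0.0176). Its exons overlap those of Cntd1 on the other strand by up to 1297 bases in the GENCODE M21 annotation. The Cntd1 entry held 0.775 to 0.853 reads for each read of Becn1 in all 6 libraries. Whether counting used strand was not given in the sources used here, and reads of the pair cannot be told apart.

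Membrane supply genes were split. Wipi1 and Wipi2 encode proteins that read the lipid made by VPS34, and they moved in opposite directions. Wipi1 had 17.9, 10.1 and 7.51 CPM with vector and 0.238, 0.774 and 0.907 CPM with TXNIP, 18.5-fold lower (log2 fold change -4.13 ± 0.51, edgeR adjusted p = 1.69e-05). After Optn this was the deepest fall among the members. Without replicate 1 of both groups its log2 fold change was -3.38. Wipi2, the paralog that recruits ATG16L1, had 48.1, 30.8 and 37.0 CPM and then 56.0, 52.6 and 54.1 CPM and rose 1.41-fold (log2 fold change 0.50 ± 0.17, edgeR adjusted p = 0.0255). The call ended without TXNIP replicate 3 (adjusted p = 0.0539), control replicate 3 (0.080) or control replicate 2 (0.121), and with library size alone (0.0541).

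Atg2a and Atg2b encode the bridges that move lipid into the membrane, and they also moved in opposite directions. Atg2a had 30.7, 26.5 and 20.9 CPM with vector and 16.5, 12.6 and 13.4 CPM with TXNIP, 1.84-fold lower (log2 fold change -0.88 ± 0.21, edgeR adjusted p = 0.00321). Atg2b had 19.5, 23.4 and 26.8 CPM and then 33.0, 26.6 and 39.4 CPM, 1.42-fold higher, with groups that overlapped (log2 fold change 0.50 ± 0.20, edgeR adjusted p = 0.0427). The Atg2b call ended without TXNIP replicate 3 (adjusted p = 0.179), TXNIP replicate 1 (0.0647) or control replicate 1 (0.117) or 2 (0.0912), without replicate 1 of both groups (0.0803), with library size alone (0.0744) and in limma-voom (0.0594). Exons of Atg2b overlap those of Gskip on the other strand by up to 383 bases. Whether reads of Gskip entered the Atg2b level, or the paralog share below, was not tested. Vmp1, a lipid scramblase of the endoplasmic reticulum, had 202 ± 19.7 and 186 ± 6.41 CPM, and Atg9a, the scramblase of ATG9 vesicles, had 11.3 ± 1.81 and 14.5 ± 3.42 CPM. Neither passed, and both had groups that overlapped.

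The first conjugation system joins ATG12 to ATG5, and ATG16L1 then places the product on the membrane. Of its 6 members 2 rose and 4 did not pass (33.3% changed, against 64.5% of all tested genes). Atg7, the activating enzyme of both conjugation systems, had 26.5 ± 1.46 CPM with vector and 50.2 ± 6.01 CPM with TXNIP, 1.90-fold higher (log2 fold change 0.92 ± 0.16, edgeR adjusted p = 2.66e-04). Atg16l2, a paralog of ATG16L1 that is known from leukocytes, had 15.7, 13.8 and 12.5 CPM and then 34.1, 47.4 and 46.6 CPM, 3.05-fold higher (log2 fold change 1.61 ± 0.19). Atg16l1 had 24.0, 27.5 and 21.3 CPM and then 17.9, 19.7 and 27.4 CPM and missed the threshold (edgeR adjusted p = 0.526). Leukocyte markers moved in the same libraries as Atg16l2, and their part in its rise was not tested.

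The remaining members of this system did not pass. Atg5 stood at 61.6 ± 3.66 and 48.6 ± 6.10 CPM with an edgeR adjusted p of 0.0575, and it passed without TXNIP replicate 2 (0.0434), in DESeq2 (0.0464), with library size alone (0.0264) and with a filter of 5 CPM in 3 libraries (0.0478). Atg12 had 38 ± 7.17 and 43.9 ± 8.09 CPM. Atg10, the enzyme that joins ATG12 to ATG5, had 5.60 ± 1.34 and 9.18 ± 2.61 CPM (edgeR adjusted p = 0.0777) and passed without TXNIP replicate 2 (0.0308). Summed over the 6 members, the level was 170 ± 8.59 CPM with vector and 216 ± 5.41 CPM with TXNIP (SD, n = 3 each).

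The second system cuts ATG8 with ATG4 proteases and joins it to lipid with ATG3. Of these 5 members 1 rose, 2 fell and 2 did not pass (60% changed, against 64.5% of all tested genes). Atg3 had 22.7, 25.4 and 26.3 CPM with vector and 46.6, 50.2 and 47.0 CPM with TXNIP, 1.93-fold higher (log2 fold change 0.95 ± 0.15, edgeR adjusted p = 1.6e-04). Its promoter window is among those printed above with the longer E-box motif, as is the Atg7 window, which lies inside that gene. Atg4c had 8.91, 9.22 and 8.82 CPM and then 3.57, 2.71 and 2.63 CPM, 3.03-fold lower (log2 fold change -1.60 ± 0.32, edgeR adjusted p = 8.38e-04).

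Atg4b, the main ATG4 protease, had 29.9, 42.6 and 38.3 CPM with vector and 26.3, 25.8 and 27.2 CPM with TXNIP, 1.40-fold lower (log2 fold change -0.48 ± 0.18, edgeR adjusted p = 0.0293). Its groups did not overlap, but the call ended without control replicate 2 or 3 or without any one TXNIP library (adjusted p between 0.0515 and 0.134). Atg4d had 40.4, 38.2 and 37.3 CPM and then 52.6, 46.7 and 45.3 CPM and missed the threshold (edgeR adjusted p = 0.071). Its exons overlap those of Kri1 on the other strand by up to 792 bases, and the Kri1 entry held 0.981 to 1.07 reads for each read of Atg4d, so the value of Atg4d is uncertain in the same way as that of Becn1. Atg4a had 1.10, 1.94 and 2.16 CPM and then 2.02, 1.84 and 2.27 CPM and did not pass.

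**Figure D3:**
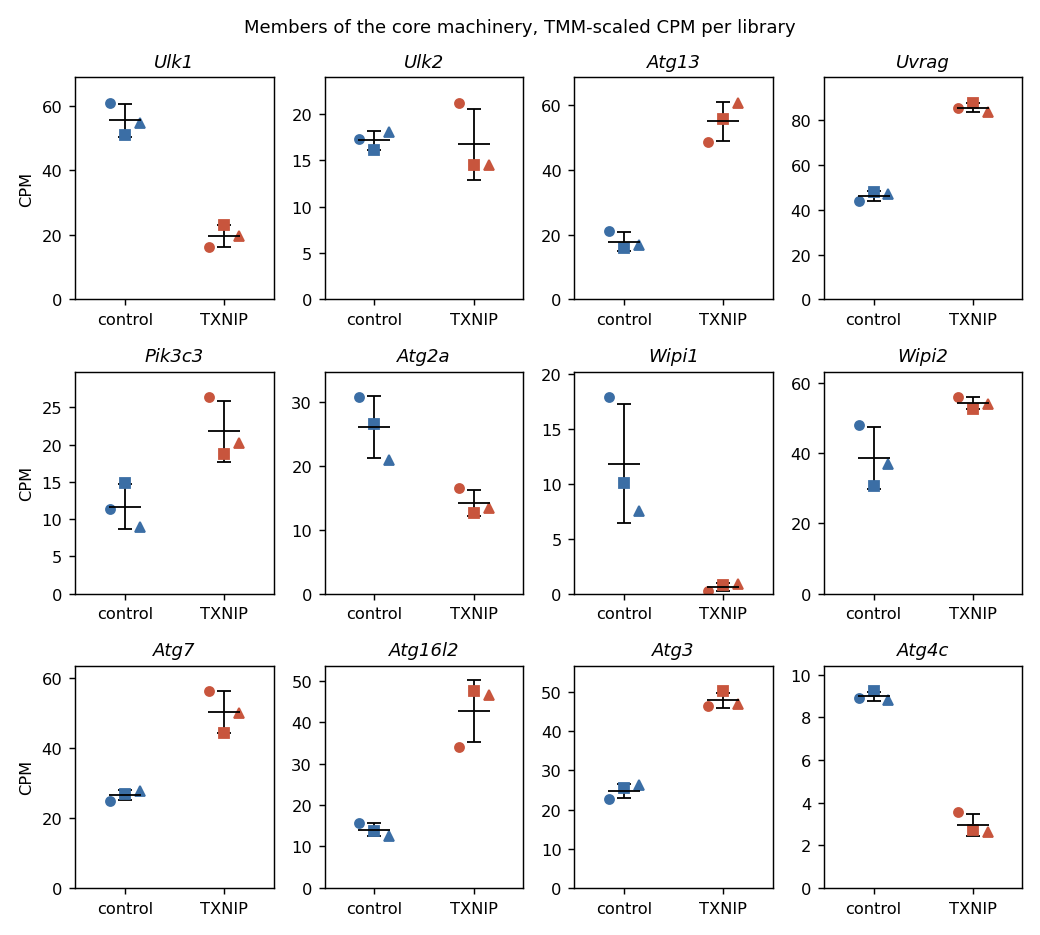
Level of 12 members of the core machinery in TMM-scaled CPM on linear axes from 0; circles, squares and triangles are replicates 1, 2 and 3, and bars give the mean ± SD (n = 3). Ulk1, Atg2a, Wipi1 and Atg4c lie lower in every TXNIP library than in any control, Ulk2 overlaps, and the other 7 lie higher in every TXNIP library.

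**Figure D4:**
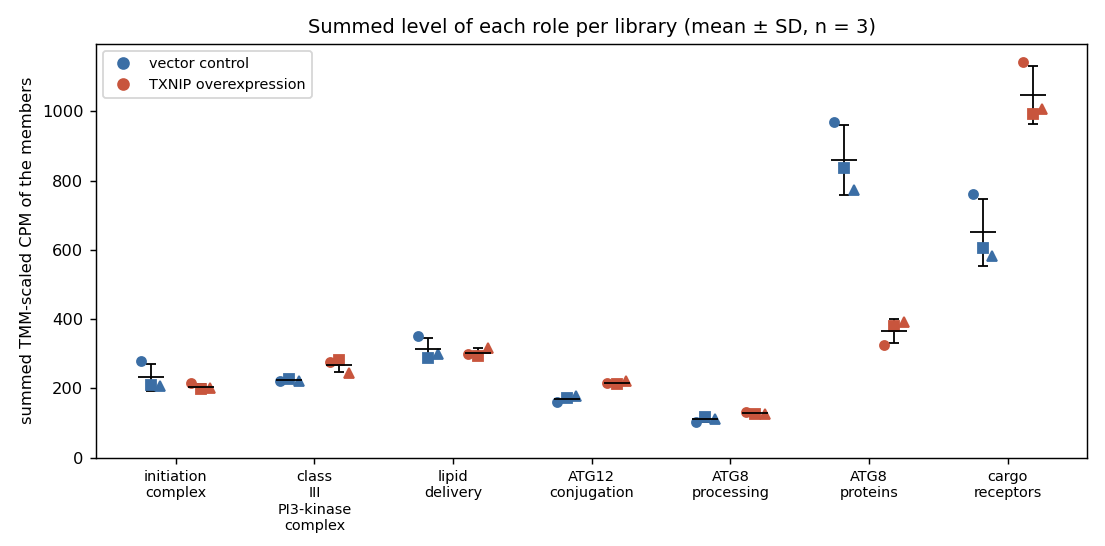
Summed TMM-scaled CPM of the members of each role (y axis, linear from 0) in each control (blue) and TXNIP (red) library, with the mean ± SD (n = 3). The ATG8 sum is lower in every TXNIP library (325 to 392 CPM) than in any control (772 to 970 CPM), and the receptor sum is higher (994 to 1143 against 584 to 761 CPM), but lower without Sqstm1 (199 to 286 against 292 to 410 CPM).

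Several members are paralogs of each other, and the share of a family's reads held by 1 paralog does not depend on how libraries are scaled. Shares were compared between groups in 7 families, for 12 shares, by a two-sided exact permutation test, whose smallest possible p with 3 against 3 libraries is 0.1. The groups did not overlap for 10 of the 12 shares. Each of these had the exact permutation p of 0.1 and an adjusted value of 0.12. No share could thus pass a threshold of 0.05 in this design. Shares within a family are tied to each other, so those of the ATG4 and of the GABARAP genes are not independent. Shares in other gene families were not computed, so the count has no background beside it. Ulk1 held 77.9%, 76.0% and 75.2% of the reads of Ulk1 and Ulk2 in the controls and 43.7%, 61.4% and 57.8% in the TXNIP libraries. Wipi1 held 27.2%, 24.7% and 16.9% of the Wipi1 and Wipi2 reads and then 0.423%, 1.45% and 1.65%. In the TXNIP libraries the pair was thus counted almost wholly as Wipi2.

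Atg16l1 held 63.3% ± 3.13 of the Atg16l1 and Atg16l2 reads in the controls and 33.6% ± 3.88 in the TXNIP libraries (SD, n = 3 each). Atg2a held 52.7% ± 8.68 of the Atg2a and Atg2b reads and then 30.3% ± 4.25. Among the ATG4 genes, Atg4b went from 42.6% ± 4.74 to 33.2% ± 2.04 and Atg4c from 10.4% ± 0.575 to 3.71% ± 0.446, while Atg4d went from 45.0% ± 4.65 to 60.5% ± 1.88. The shares of all 4 ATG4 genes rest on the Atg4d reads, which are uncertain through the overlap with Kri1. Map1lc3a held 9.75% ± 1.34 of LC3 reads and then 6.96% ± 0.441. Within the GABARAP branch, Gabarap held 48.8% ± 5.34 and then 57.0% ± 4.49, and the share of Gabarapl2 went from 29.1% ± 0.607 to 25.1% ± 2.19. Those of Gabarapl1 and Atg4a overlapped between groups.

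**Figure D5:**
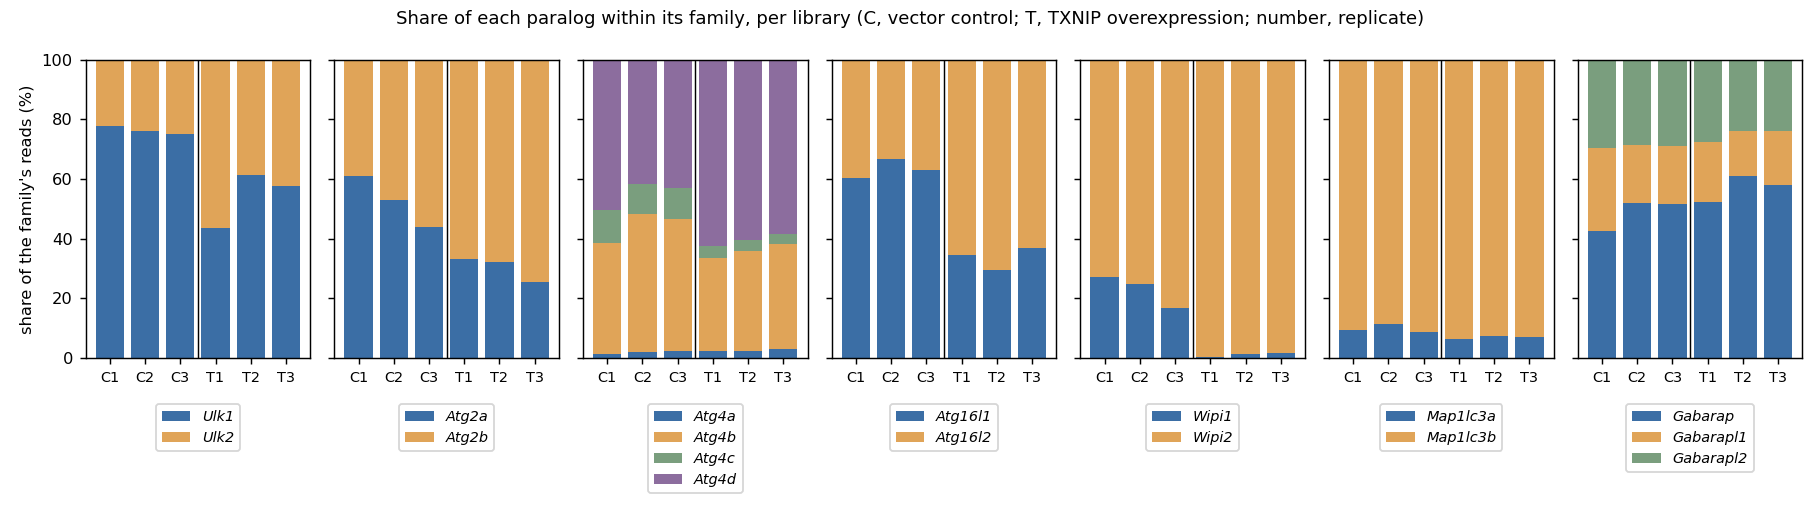
Share of each paralog in the reads of its family (y axis, percent) in control (C1 to C3) and TXNIP (T1 to T3) libraries, for 7 families. The Wipi1 share is 16.9% to 27.2% in the controls and 0.423% to 1.65% in the TXNIP libraries, and the Atg16l1 share is 60.4% to 66.6% in the controls and 29.4% to 37.0% in the TXNIP libraries.

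The rest of the pathway was read from a list of 67 other autophagy genes, of which 64 were tested; 16 rose, 24 fell and 24 did not pass. That is 62.5%, against 64.5% of all tested genes. Of 19 genes of nutrient and energy control, 4 rose, 9 fell and 6 did not pass (68.4% changed, near the 64.5% of all tested genes). Prkaa2, a catalytic subunit of AMPK, had 13.2 ± 5.23 CPM with vector and no read with TXNIP, at least 122-fold lower. Among the sestrins, inhibitors of mTOR complex 1 signalling, Sesn3 went from 19.8 ± 0.878 CPM to none, by at least 197-fold, and Sesn1 rose from 3.54 ± 0.409 to 19.5 ± 1.03 CPM. Sesn2, the other sestrin gene, named after its values were seen, rose from 0.874 ± 0.291 to 2.49 ± 0.579 CPM (log2 fold change 1.53 ± 0.54, edgeR adjusted p = 0.0257).

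Of 6 tested transcription factors 2 rose, 2 fell and 2 did not pass, and Foxo3 had too few reads to test. The changed share, 66.7%, was near the 64.5% of all tested genes. Mitf, a relative of TFEB that is known for its roles in melanocytes, osteoclasts and macrophages, rose from 0.797 ± 0.309 to 67.5 ± 1.25 CPM (log2 fold change 6.31 ± 0.25). Foxo1, a regulator of several autophagy genes, fell from 27.3 ± 3.20 to 4.37 ± 0.807 CPM. Tfeb fell from 19.2 ± 6.52 to 10.9 ± 0.801 CPM (log2 fold change -0.81 ± 0.26, edgeR adjusted p = 0.0159), a call lost without control replicate 1 (log2 fold change -0.51, adjusted p = 0.0663) and without replicate 1 of both groups (adjusted p = 0.0996).

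Of 8 partners of the core complexes 1 rose, 4 fell and 3 did not pass (62.5% changed, against 64.5% of all tested genes). Wdr45 and Wdr45b, which encode the other two WIPI proteins, fell from 20.8 ± 3.62 to 8.998 ± 2.30 CPM and from 130 ± 3.75 to 81.1 ± 2.48 CPM. Wipi2 was thus the WIPI gene that rose, in a call that single libraries ended. Sh3glb1, which encodes the membrane-bending Beclin 1 partner BIF-1, fell from 343 ± 0.695 to 201 ± 35.6 CPM.

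Of 14 genes for fusion with lysosomes 6 rose, 3 fell and 5 did not pass, and the median log2 fold change was 0.57 (-0.04 for all tested genes). The changed share was 64.3%, against 64.5% of all tested genes, of which 30.6% were higher. Plekhm1, an adaptor that joins lysosomes to ATG8, rose 3.84-fold from 16.7 ± 1.97 to 64.1 ± 8.68 CPM. Snap29, a subunit of the fusion complex with syntaxin 17, rose 2.02-fold, and Vps16, a core subunit of the tethering complexes HOPS and CORVET, rose 2.08-fold. Of 17 tested factors of mitophagy, ER-phagy and other selective routes 3 rose, 6 fell and 8 did not pass. Their changed share was 52.9%, against 64.5% of all tested genes. Stbd1, a glycogen-binding receptor, went from 10.5 ± 0.798 CPM to none, by at least 105-fold, and the ER-phagy receptor genes Sec62 and Rtn3 fell 3.15-fold and 1.88-fold. Park2 and Calcoco2 had too few reads to test.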

How the data were processed

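Trizol RNA entered a Lexogen QuantSeq library preparation, per the labels' protocols, and was sequenced single-end, per the series' design text. Bowtie2, bedtools and build mm10 are named in the submitters' processing notes; versions, annotation and strand use were not given in the sources used here. Raw counts per gene symbol were deposited by the authors in 1 file per library, with no molecular identifiers described, so the floor of 3 reads covers counting error only.

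Genes were kept by filterByExpr and scaled by TMM factors (0.965 to 1.04), and the deposited counts were tested with edgeR 4.0.16 (R 4.3.3; quasi-likelihood, robust, two-sided, Benjamini-Hochberg over 12088 genes, threshold 0.05). Levels are CPM with these factors. The alternatives used DESeq2 1.42.0, limma-voom (limma 3.58.1), other scalings and filters, a replicate block, left-out libraries, stricter thresholds, removal of Rn45s and thinned counts. The edgeR script was tested on simulated counts. Paralog shares were compared with an exact permutation test over libraries.

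All members are accounted for; the value in every library is given for members that changed over 2-fold and for the paralog families, and 3 genes per other list were named by smallest adjusted p. Members and lists were chosen with earlier results of these data known. The FOXO, NRF2 and TATA motifs in the closing section were added after the values were seen.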

Additional observations from a re-analysis of the deposited data

How the results depend on the processing

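Of the 22 members that changed, 19 kept their direction and stayed past the threshold in the 16 alternatives that kept the threshold and set no minimum fold; the exceptions were Atg2b, Wipi2 and Atg4b. Of the 16 that did not pass, 7 stayed so with the same sign in all of those run. The count of changed members ranged from 19 to 23 over single left-out libraries, was 24 in DESeq2 and 19 at the stricter threshold of 0.01. Over all genes the counts in these settings were 7201 to 7870, 7864 and 6440, against 7796 in the main fit. Requiring a fold over 1.5 (glmTreat) lowered counts: members higher to 6, other autophagy genes to 20 (6 higher, 14 lower) and all genes higher to 2382, since it asks for more than a nonzero change. Signs changed for some members that did not pass, namely Ulk2 (log2 fold change from -0.23 to 0.069 over single left-out libraries), Atg12 (-0.090 without replicate 1 of both groups) and Atg4a (-0.0079 to 0.40 over single left-out libraries). The summed lipid delivery level, slightly lower with TXNIP, ranged from -0.10 to 0.045 on the log2 scale over single left-out libraries, above 0 without control replicate 1. The receptor sum was -0.51 on that scale without Sqstm1, an alternative chosen after seeing the data. The summed ATG12 conjugation level differed by 0.28 on the log2 scale with library size alone and by 0.35 with TMM; the cause was not tested. Same-numbered libraries deviated together with correlations of 0.178, 0.0933 and 0.0831. Between replicate 1 of either group and replicates 2 and 3 of the other, correlations were -0.139 to -0.124. Replicates 2 and 3 across groups gave 0.0961 and 0.109, so their numbers could not be told apart. Replicate 1 thus shared a deviation across groups, and whether the numbers pair the samples was not settled. With the replicate block 23 members, 41 other autophagy genes and 7767 of all genes changed, and Rb1cc1 passed (edgeR adjusted p = 0.0275). The paralog shares kept the sign of their difference in each alternative run for them.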

Other observations

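Further motifs were searched in the same RefSeq windows of 32 members, on both strands. The FOXO motif GTAAACA was in none of them, against 4.05% of all genes with a window. TGACNNNGC, the core of the NRF2 element, was in 5 (Atg13, Map1lc3b, Tax1bp1, Ulk2 and Vmp1), or 15.6% against 13.99% of all genes. TATAAA was in 2 (Atg4a and Sqstm1), or 6.25% against 15.7%. Shares among tested genes were not counted for these 3 motifs. All genes with a window are an unlike set, with a median of 6 CpG against 17 for tested genes and 16.5 for members. Of the 38 members, 13 share exon sequence with another gene. For 6 of them that gene lies on the other strand and has its own entry: Atg2b with Gskip, Atg4d with Kri1, Atg9a with Ankzf1, Becn1 with Cntd1, Gabarapl1 with 1700101I11Rik and Map1lc3b with Zcchc14. Sqstm1 overlaps the protein-coding gene Mrnip by up to 580 bases on the other strand. No entry was found under the symbol Mrnip, and entries under other symbols of the overlapping genes were not searched. The Zcchc14 entry held 0.0828 to 0.330 reads for each read of Map1lc3b, and 1700101I11Rik at most 0.0312 for each read of Gabarapl1. The Gskip entry held 0.569 to 1.64 reads for each read of Atg2b, and Ankzf1 0.591 to 1.83 for each read of Atg9a.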
